A study of Homo sapiens with 21 samples.

Results

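In hTERT-HPNE cells, the mean expression of 132 genes at 24 h lay more than 0.58 above that of untreated cells on a log2 scale, both after NCS and after H2O2. That limit equals a 1.49-fold difference. The genes were selected on these 24 h and untreated values, out of 19694 genes with a value other than 0 in some library and 23368 listed. COL7A1, GDF15, HIST1H2AC and HIST1H2BD met the same limit and were left out, as were all symbols beginning with HIST or COL, so 136 genes (0.691% of those measured) passed before this exclusion. The cells were of a single immortalized, nontransformed human pancreatic line that carries a telomerase transgene. Medium was replaced before treatment. One group of 3 biological replicates was left untreated (0 h), 3 groups were harvested 4, 8 and 24 h after 300 µM H2O2, an oxidant, and 3 groups 4, 8 and 24 h after 400 ng/ml neocarzinostatin (NCS), which breaks both strands of DNA. Both treatments were set against the same 3 untreated libraries. No untreated cells were harvested at 4, 8 or 24 h. A rise shared by both treatments therefore cannot be told apart from a change with time in culture.

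p53 is a transcription factor that is held at a low level by the ubiquitin ligase MDM2 and accumulates after DNA breaks and other stress, when it switches on genes of cell cycle arrest, DNA repair, metabolism and cell death. The integrated stress response is a separate pathway, in which stress kinases slow translation and favour the transcription factor ATF4, whose targets include genes for amino acid supply and the factors ATF3 and DDIT3. Both pathways feed back on themselves, p53 through MDM2 and the integrated stress response through TRIB3. Because whole cultures were sequenced, fewer cells of a type and less RNA per cell cannot be told apart.

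The values were the authors' rLog values, log2 read counts normalized for library size and shrunk most where reads were few. They hold no counts, so the depth of the libraries and the error of counting are unknown. Library medians lay between 7.14 and 7.19. One library, replicate 2 of H2O2 at 8 h, stood apart from the other replicates of its group, by root mean square differences of 0.105 and 0.108 over all genes, against 0.0637 to 0.0815 for every other pair of replicates; its part in a result is given where a count rests on it. All 7 markers of the line (NES, TERT, VIM, THY1, CD44, S100A4 and FAP) were measured, with a summed value of 81.2 to 82.5 in all libraries. A mean under 1 in every group was found for 3 of 9 duct and epithelium markers (KRT19, EPCAM and CFTR), 2 of 4 endothelial markers (CDH5 and KDR) and PTPRC of immune cells. The summed value was 39.4 to 40.7 for the 9 duct and epithelium markers, so others of them carried signal, and 2.9 to 3.6 for the 4 endothelial ones. That of 5 immune markers was 16.1 to 16.2 in untreated libraries and 18.0 to 18.1 after H2O2 at 4 h, and its part in the 4 h results was not tested. Of 30 proliferation genes, none was among the 132, and 29 lay more than 0.58 below untreated cells at 24 h in each treatment, with median differences of -1.69 after H2O2 and -1.91 after NCS.

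The name "induced late" held only in part. All 3 libraries of both 24 h groups lay above all 3 untreated libraries for each of the 132 genes, as their selection favoured. Yet 38 of the genes (28.8%) had already passed the limit before 24 h in both treatments, and 47 (35.6%) first passed it at 24 h in both. These counts depend on how the start is set: where it was the first time at which 50% of a gene's own 24 h difference was reached, 56 genes started before 24 h in both and 31 at 24 h in both, 29 of them among the 47. Over single groups, 313 of all genes (1.59%) lay over the limit after H2O2 at 24 h and 187 (0.95%) after NCS. The median difference of the 132 genes from untreated cells was 0.88 after H2O2 and 0.78 after NCS at 24 h. The values at 24 h spanned a wide range. UNC5B, a netrin receptor, was highest after H2O2 (2.87), and PAPPA, a secreted protease that cleaves insulin-like growth factor binding proteins, was highest after NCS (1.89). At the limit itself, EPAS1 (0.5803 after NCS), XAF1 (0.581 after NCS) and ODZ4 (0.582 after NCS) were the members just inside. Just outside were EREG (0.579 after NCS), GGT1 (0.578 after H2O2) and RRAD (0.577 after NCS). All 6 differed from the limit by less than the SD of any of their 24 h groups.

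The start of the rise was taken as the first of 4, 8 and 24 h at which the group mean passed the limit over untreated cells. It is a description and carries no test, because the untreated libraries also chose the genes. After H2O2, 33 genes (25%) started at 4 h, 36 (27.3%) at 8 h and 63 (47.7%) at 24 h. After NCS the numbers were 31 (23.5%), 23 (17.4%) and 78 (59.1%). In every case in which a member passed the limit at 4 or 8 h, all 3 libraries lay above all 3 untreated ones. At the same limit, 2.25% of all genes lay over untreated cells after H2O2 at 4 h and 1.39% at 8 h, and after NCS 0.462% and 0.447%. Of the 132 genes, 66 were over the limit after H2O2 at 8 h and 54 after NCS. CES3, ZNF385A and ZNF425 passed it after H2O2 at 4 h and were back under it at 8 h. Without replicate 2 of H2O2 at 8 h, 39 genes in place of 36 started at 8 h after H2O2.

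**Figure D1:**
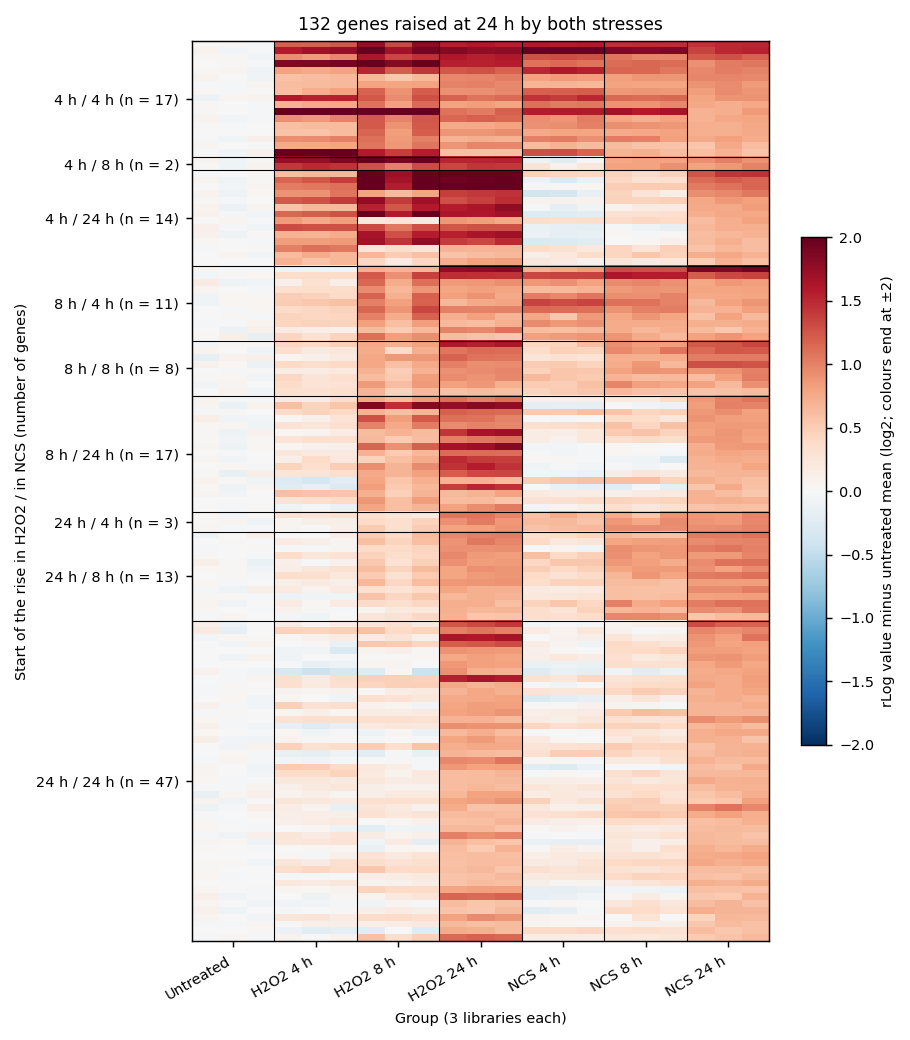
rLog value minus the untreated mean (log2, colour, ending at ±2) for the 132 genes in all 21 libraries. Rows are sorted by the first time over the limit of 0.58 in H2O2 and then in NCS, and the lowest block, 47 genes that started at 24 h in both, is under the limit until then, with some genes close to it.

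Before 24 h, many genes had moved without passing the limit. For 87 of the 132 genes, all 3 libraries 4 h after H2O2 lay above all 3 untreated ones, as did 27.2% of all genes, and 8 h after H2O2 this held for 114, against 21.6% of all genes. After NCS 89 genes did so at 4 h, against 13.7% of all genes, and 115 at 8 h, against 16%. A minority lay below the untreated mean, 22 genes after H2O2 at 4 h and 9 at 8 h, and 29 and 8 after NCS. The median difference of the 132 genes went from 0.27 at 4 h to 0.58 at 8 h after H2O2, and from 0.24 to 0.45 after NCS. The highest of the 3 treated means was that at 24 h for 99 genes after H2O2 and 104 after NCS, at 8 h for 26 and 10, and at 4 h for 7 and 18.

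The order of the treatments differed between genes. By the limit, the rise started at the same time in both for 72 genes, earlier after H2O2 for 33 and earlier after NCS for 27. The limit was the same for both treatments, while the median 24 h difference was 0.88 after H2O2 and 0.78 after NCS. With the start at 50% of a gene's own 24 h difference, the order of some genes changed. ZMAT3 and DUSP4 then started earlier after NCS in place of H2O2. C5orf41 and YPEL2 then started earlier after H2O2 in place of the same time. Whether the excess for H2O2 holds with that start was not tested. The starts listed next are those by the limit. At 4 h in both started ANGPTL4, ATF3, BBC3, BTG2, CDKN1A, DYRK3, EDA2R, FAM212B, FAS, GDNF, MDM2, PLK3, SESN1, SESN2, SLC30A1, TNFRSF10B and TP53INP1. At 8 h in both started CES2, CMBL, CSGALNACT1, CYFIP2, KRT17, PTCHD4, SERPINE2 and VWCE. CHAC1 and DDIT3 started at 4 h after H2O2 and 8 h after NCS. A further 14 genes started at 4 h after H2O2 and only at 24 h after NCS: ADM2, ASNS, CES3, DDIT4, LURAP1L, PSAT1, TRANK1, TRIB3, ULBP1, UNC5B, VEGFA, VLDLR, ZNF385A and ZNF425. At 8 h after H2O2 and 24 h after NCS were CBS, CCND2, DMBT1, DUSP4, FAM129A, GABARAPL1, KIF26B, NUPR1, PAPPA2, PCK2, SAT1, SLC6A15, SLC6A9, SLFN5, TNFRSF10D, XAF1 and ZMAT3.

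In the other direction, 11 genes started at 4 h after NCS and 8 h after H2O2: ACER2, C12orf5, FDXR, PAPPA, PHLDA3, PSTPIP2, STOM, TAP1, THSD1, TNFRSF10A and TOB1. CLDN1, TNFRSF14 and TRIM22 started at 4 h after NCS and at 24 h after H2O2. ASTN2, C7orf10, DACH2, FAM198B, FUCA1, GAL3ST4, MAP1A, MCC, PLXNB3, RRM2B, SCN2A, SDC1 and SPATA18 started at 8 h after NCS and 24 h after H2O2. The 47 genes that started at 24 h in both included ABCA1, ABCC3, AHNAK2, ALDH1L2, ANXA4, APOBEC3C, ARSD, C1RL, C5orf41, CDKN2B, CLIP3, DNER, DYSF, EPAS1, FAM210B, FAM214A, FNDC4, IGDCC4, ITPKC, KCNMA1, KIAA1217, LOC100131564, MLLT11, MORN4, MXD4, NRCAM, ODZ4, OLAH, ORAI3, PFKFB4, PGPEP1, PLAU, PNPLA3, PNRC1, POLD4, POU2F2, RETSAT, RPS27L, SDSL, SEC14L2, SLC16A4, SLC22A18, SYT7, TP53I3, TSPAN10 and YPEL2. Several of these were close to the limit earlier, such as AHNAK2 after NCS at 8 h (0.576, just under it), so the class of a gene near the limit depends on where the limit is set.

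**Figure D2:**
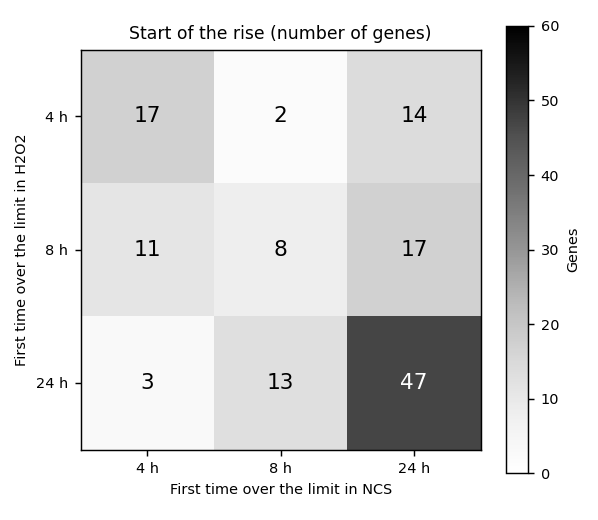
Number of the 132 genes by the first time over the limit of 0.58 in H2O2 (rows) and in NCS (columns), with darker cells holding more genes. The corner for 24 h in both holds 47 genes and that for 4 h in both holds 17.

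Whether the treatments differed could be tested at 4 h and 8 h, in libraries that had no part in selecting the genes. In one limma fit of all 7 groups, a gene was called at an adjusted p under 0.05 (Benjamini-Hochberg over 19694 genes) and a difference over 0.58. At 4 h, 17 of the 132 genes (12.9%) were higher after H2O2 than after NCS, against 2.14% of all genes, and 8 (6.06%) were lower, against 0.487%. CHAC1, ATF3, DDIT4, VEGFA and ADM2 had the largest differences in favour of H2O2, and FDXR, PAPPA, ZMAT3, THSD1 and MDM2 in favour of NCS. At 8 h, 20 genes (15.2%) were higher after H2O2, against 0.711% of all genes, and PAPPA and ASTN2 (1.52%) were lower, against 0.208%. SLC6A9, ADM2, VLDLR, DDIT4 and UNC5B led those higher at 8 h. The median difference over the 132 genes was near 0 at both times, -0.06 at 4 h and 0.01 at 8 h, beside 0.01 and -8.02e-05 over all genes. By the adjusted p alone, 40 were higher and 50 lower after H2O2 at 4 h, where 26.3% and 18% of all genes were, and 46 higher and 44 lower at 8 h, where 18.7% and 15.4% were.

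**Figure D3:**
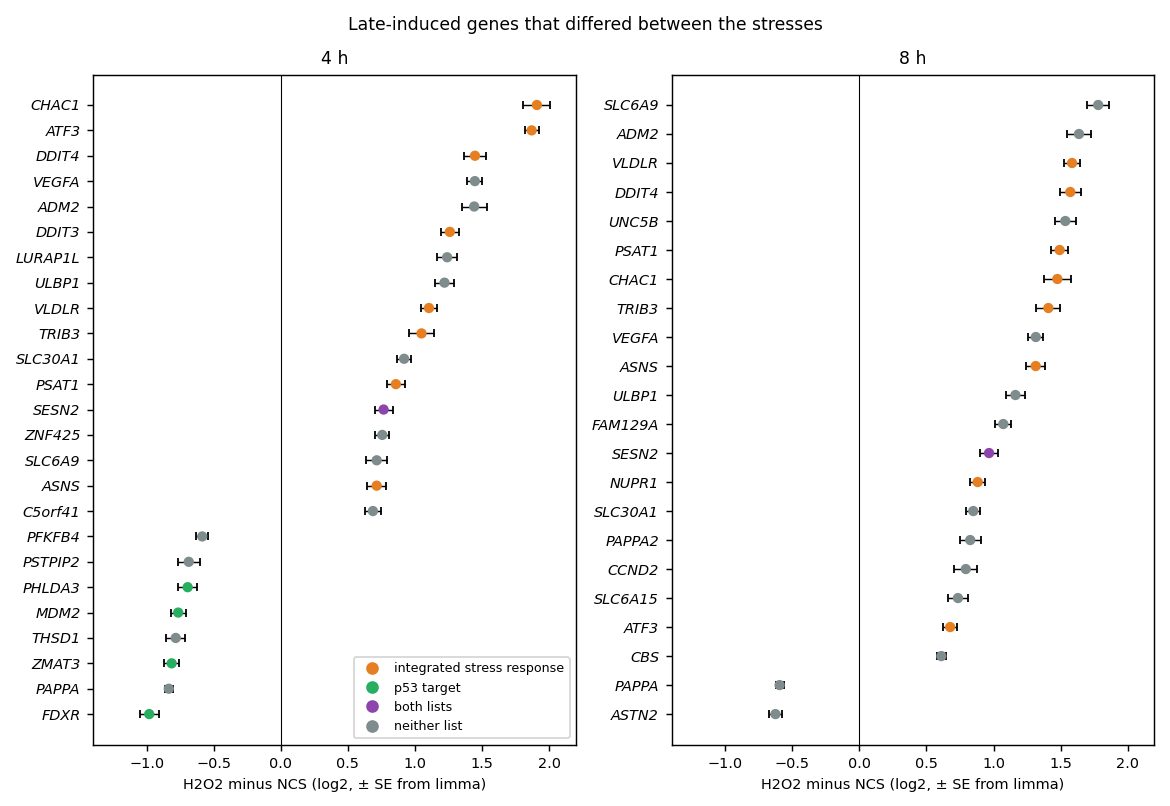
H2O2 minus NCS difference (log2, points, with the SE from limma as bars) at 4 h and at 8 h for the members called at each time, coloured by gene list. At 4 h, 9 of the 17 members higher after H2O2 are integrated stress response genes, and FDXR, ZMAT3, MDM2 and PHLDA3 of the p53 list are among the 8 that were lower.

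The p53 target list, like the other lists, was written from general knowledge but with earlier results of these data known, so its overlap with the members is a description. It held 58 measured genes, of which 27 (46.6%) were among the 132, where 0.691% of all genes met the limit. Of these 27, 17 started at 4 h after NCS, 5 at 8 h and 5 at 24 h, and 12, 10 and 5 after H2O2. Over these 3 times, their median difference from untreated cells was 0.91, 0.86 and 0.84 after NCS and 0.44, 1.01 and 0.93 after H2O2. So the median of the p53 targets was level across the NCS times and was lowest at 4 h after H2O2. In the whole list of 58 genes, 3 were higher and 4 lower after H2O2 than after NCS at 4 h (against 2.14% and 0.487% of all genes), and 2 were higher and none lower at 8 h (against 0.711% and 0.208%).

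CDKN1A, which encodes the cyclin-dependent kinase inhibitor p21, was over the limit at every time. It was at 14.13, 14.14 and 14.08 in the 3 untreated libraries. After NCS it was at 15.70, 15.69 and 15.71 (4 h), 15.59, 15.59 and 15.59 (8 h) and 15.56, 15.61 and 15.62 (24 h). After H2O2 its values were 15.31, 15.30 and 15.36 (4 h), 15.87, 15.44 and 15.91 (8 h) and 15.68, 15.72 and 15.67 (24 h). Every treated library was above every untreated one, and the low value at 8 h after H2O2 was that of the library that stood apart. The difference between H2O2 and NCS at 4 h was -0.37 (SE 0.07, adjusted p = 4.38e-04), which did not reach 0.58. BTG2, an inhibitor of proliferation, lay 2.10, 1.85 and 1.47 above untreated cells at the 3 times after NCS, and 1.68, 1.86 and 1.80 above them after H2O2.

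MDM2, the ligase that limits p53, was at 11.72, 11.75 and 11.63 in untreated cells. After NCS it was at 13.21, 13.30 and 13.25 (4 h), 12.87, 12.85 and 12.76 (8 h) and 12.66, 12.72 and 12.69 (24 h). H2O2-treated cells had 12.50, 12.46 and 12.51 (4 h), 13.23, 12.90 and 13.12 (8 h) and 12.94, 12.98 and 12.88 (24 h). NCS was thus highest at the first time and H2O2 at the second, with no overlap between the treatments at 4 h. MDM2 was lower after H2O2 at 4 h by 0.77 (SE 0.06, adjusted p = 4.07e-09), and its step from 4 to 8 h differed between the treatments by 1.02 (SE 0.08, adjusted p = 4.20e-08). The same pattern of a lower value at 4 h and a larger step after H2O2 was called for PHLDA3 and ZMAT3. PHLDA3, a repressor of AKT signalling, had differences of -0.70 at 4 h and 0.85 for the step. ZMAT3, an RNA-binding zinc finger protein, had -0.82 and 0.95. At 4 h after H2O2, ZMAT3 differed from untreated cells by -0.27, whereas MDM2 and PHLDA3 lay 0.79 and 0.42 above them. The pattern was not particular to the p53 list. Outside it, THSD1 (-0.78 at 4 h, 0.73 for the step) and PSTPIP2 (-0.69 and 0.75) were also called for both. SESN1, TP53INP1 and ACER2 were called for the difference in step (0.72, 0.83 and 0.66) and not at 4 or 8 h. The ACER2 call was lost without H2O2 8 h replicate 3 (0.57).

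FDXR, a mitochondrial reductase that passes electrons to ferredoxin, had the largest difference in favour of NCS at 4 h. Its promoter is shown because it holds a match to the p53 half-site, in capitals, beginning at position -11 relative to the RefSeq start (GRCh38.p14, chr17:74872945-74873244, minus strand, 250 bases before to 50 after the start).
FDXR: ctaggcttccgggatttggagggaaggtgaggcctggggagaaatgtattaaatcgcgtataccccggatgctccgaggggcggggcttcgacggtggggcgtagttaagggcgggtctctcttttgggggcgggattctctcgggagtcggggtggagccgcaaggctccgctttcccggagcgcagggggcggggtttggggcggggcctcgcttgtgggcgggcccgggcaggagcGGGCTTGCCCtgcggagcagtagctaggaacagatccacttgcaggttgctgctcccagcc
Untreated libraries had 9.10, 9.17 and 9.18. After NCS the values were 10.49, 10.49 and 10.51 (4 h), 10.77, 10.73 and 10.73 (8 h) and 10.36, 10.48 and 10.51 (24 h). After H2O2 they were 9.51, 9.51 and 9.52 (4 h), 10.38, 10.06 and 10.52 (8 h) and 10.63, 10.61 and 10.59 (24 h). At 4 h every NCS library lay above every H2O2 library, whereas at 24 h every H2O2 library lay above every NCS library by a small gap. FDXR was lower after H2O2 at 4 h by 0.98 (SE 0.07, adjusted p = 2.99e-09), and from 4 to 8 h it rose by 0.81 (SE 0.07, adjusted p = 4.89e-08) after H2O2. At 8 h the difference was -0.42 (SE 0.07, adjusted p = 1.32e-04), under the limit of 0.58.

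The death receptors and their relatives formed another group of p53 targets, gathered here after their values were seen. FAS, which triggers apoptosis when its ligand binds, lay 0.95 above untreated cells at 4 h after NCS and 0.62 after H2O2, and 0.74 and 0.77 at 24 h. TNFRSF10B, a receptor for the death ligand TRAIL, lay 0.78 and 0.59 above at 4 h and 0.73 and 0.90 at 24 h. TNFRSF10A, a second TRAIL receptor, passed the limit at 4 h after NCS and at 8 h after H2O2, and TNFRSF10D, which binds TRAIL without a death signal, at 24 h after NCS and 8 h after H2O2. At 24 h TNFRSF10A lay 0.68 above untreated cells after NCS and 0.74 after H2O2, and TNFRSF10D 0.70 and 0.60. The 3 TNFRSF10 genes lie near each other and are alike in sequence, so reads shared between them could have been split or dropped in counting. BBC3, which encodes the pro-apoptotic protein PUMA, was highest at 4 h in both treatments, at 1.56 above untreated cells after H2O2 and 1.45 after NCS. None of these 5 genes was called between H2O2 and NCS at 4 or 8 h.

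A few p53 targets started late in both treatments. TP53I3, an oxidoreductase, lay 0.12 above untreated cells at 8 h and 0.72 at 24 h after H2O2, and 0.46 and 0.74 after NCS. RPS27L, a ribosomal protein relative, lay 0.61 and 0.75 above at 24 h, and PGPEP1, a peptidase, 0.87 and 0.83. RRM2B, a ribonucleotide reductase subunit that supplies nucleotides for repair, passed the limit at 8 h after NCS (0.62) and was just under it after H2O2 (0.57). CYFIP2, an actin regulator, and PTCHD4, a patched-domain protein, started at 8 h in both and reached 1.21 and 1.28 at 24 h after NCS. Further targets of this list differed from untreated cells at 24 h by 0.99 after H2O2 and 0.97 after NCS for EDA2R, a receptor of the TNF receptor family, and by 0.84 and 1.07 for SPATA18, a protein of mitochondrial quality control. C12orf5, also called TIGAR, which restrains glycolysis, lay 0.66 and 0.72 above, PLK3, a polo-like kinase, 0.81 and 0.76, CMBL, a hydrolase, 0.94 and 0.93, and FAM212B 1.16 and 0.75.

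The integrated stress response list held 26 measured genes, and 10 of them (38.5%) were among the 132: ASNS, ATF3, CHAC1, DDIT3, DDIT4, NUPR1, PSAT1, SESN2, TRIB3 and VLDLR. After H2O2, 9 started at 4 h and NUPR1 at 8 h. After NCS, ATF3 and SESN2 started at 4 h, CHAC1 and DDIT3 at 8 h and the other 6 at 24 h. Their median difference from untreated cells was 1.14, 1.76 and 1.54 at 4, 8 and 24 h after H2O2 and -0.07, 0.41 and 0.77 after NCS. At 4 h, 9 of the 10 were higher after H2O2 than after NCS and none lower, and at 8 h again 9. In the whole list of 26, 17 were higher and none lower at 4 h (against 2.14% and 0.487% of all genes), and 18 and none at 8 h (against 0.711% and 0.208%). SESN2, an inhibitor of the growth kinase complex mTORC1, stands in both lists and lay 1.87, 2.09 and 1.55 above untreated cells at the 3 times after H2O2 and 1.10, 1.13 and 1.00 after NCS.

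**Figure D4:**
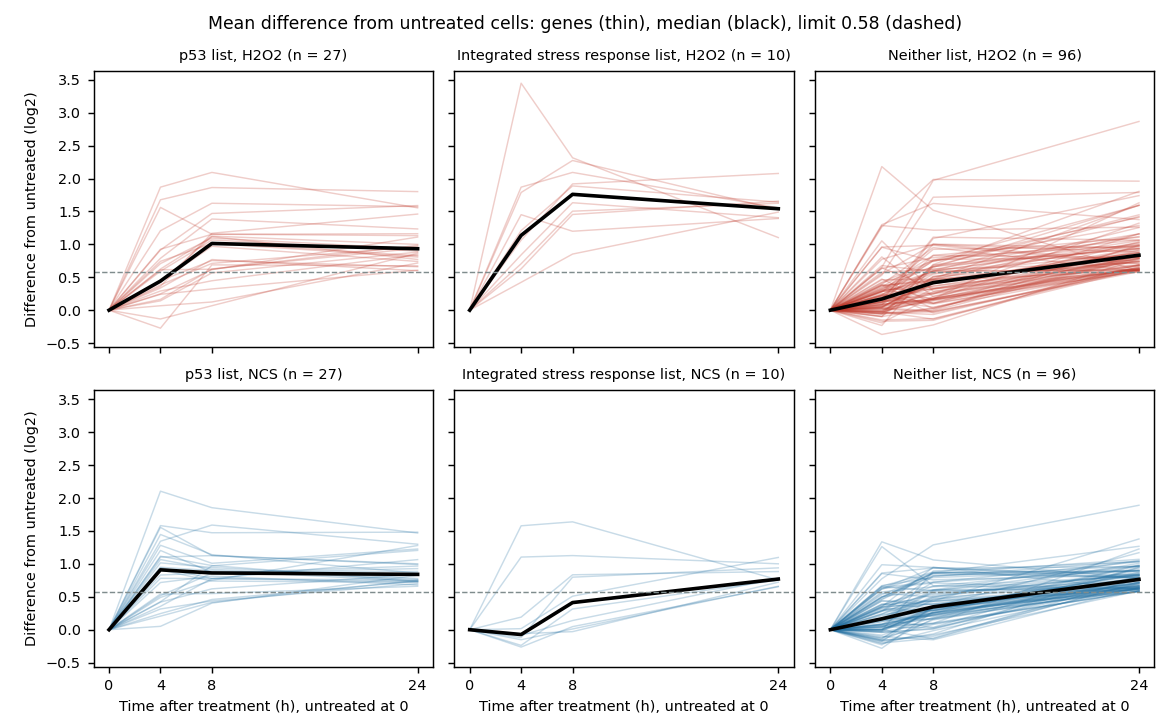
Mean difference from untreated cells (log2) against time after treatment for the members in the p53 list, the integrated stress response list and neither list (thin lines, 1 gene each), with the median in black and the limit of 0.58 dashed. The median of the integrated stress response genes is 1.14 at 4 h after H2O2 and -0.07 after NCS, while that of the p53 list is 0.44 and 0.91.

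The promoters of ASNS, CHAC1 and ATF3 are shown because each holds the letters of a C/EBP-ATF response element, TGATGNAA, which ATF4 is known to bind and which was added to the search after the data were seen. The match is in capitals and lies on the opposite strand, as its reverse complement, in CHAC1 (GRCh38.p14, ASNS chr7:97872359-97872658, minus strand, CHAC1 chr15:40953221-40953520, plus strand, ATF3 chr1:212565157-212565456, plus strand, each from 250 bases before to 50 after the RefSeq start).
ASNS: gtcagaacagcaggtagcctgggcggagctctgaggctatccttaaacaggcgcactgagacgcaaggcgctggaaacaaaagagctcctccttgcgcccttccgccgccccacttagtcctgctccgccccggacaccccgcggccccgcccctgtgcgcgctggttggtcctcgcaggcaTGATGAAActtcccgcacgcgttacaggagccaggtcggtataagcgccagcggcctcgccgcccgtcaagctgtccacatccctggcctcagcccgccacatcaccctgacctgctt
CHAC1: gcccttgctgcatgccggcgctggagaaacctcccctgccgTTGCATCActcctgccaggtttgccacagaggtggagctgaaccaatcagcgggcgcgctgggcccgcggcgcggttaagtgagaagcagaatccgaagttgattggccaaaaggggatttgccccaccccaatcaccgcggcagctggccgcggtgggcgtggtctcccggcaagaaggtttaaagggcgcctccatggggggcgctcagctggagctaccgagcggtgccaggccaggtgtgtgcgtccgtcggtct
ATF3: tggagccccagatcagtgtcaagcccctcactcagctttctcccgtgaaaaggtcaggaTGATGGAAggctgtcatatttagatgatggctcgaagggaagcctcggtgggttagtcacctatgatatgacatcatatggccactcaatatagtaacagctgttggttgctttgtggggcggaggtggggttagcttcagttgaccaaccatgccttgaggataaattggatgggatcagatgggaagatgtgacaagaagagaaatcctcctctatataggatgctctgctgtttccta
The matches begin at positions -68, -209 and -191 relative to the start. Among the 9 integrated stress response members with a promoter sequence, 3 (33.3%) held it, against 4% of all 100 members with a sequence and 3.62% of all 35116 promoters.

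ASNS, which makes asparagine, was at 10.96, 10.77 and 10.94 in untreated cells. After H2O2 it was at 11.46, 11.56 and 11.53 (4 h), 12.43, 12.13 and 12.47 (8 h) and 12.46, 12.52 and 12.66 (24 h). After NCS its values were 10.85, 10.73 and 10.82 (4 h), 10.98, 11.05 and 11.05 (8 h) and 11.65, 11.65 and 11.72 (24 h). The NCS libraries overlapped the untreated ones at 4 h and lay just above them at 8 h, whereas every H2O2 library lay well above them from 4 h on. ASNS was higher after H2O2 by 0.71 (SE 0.07, adjusted p = 1.91e-07) at 4 h and by 1.31 (SE 0.07, adjusted p = 5.05e-10) at 8 h. At 24 h, at which no test was run, the means were 12.55 ± 0.10 and 11.67 ± 0.04 (SD, n = 3). PSAT1, an enzyme of serine synthesis, had called differences of 0.86 at 4 h and 1.49 at 8 h.

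CHAC1, an enzyme that breaks down glutathione, had the largest difference between the treatments at 4 h. Untreated cells had 8.88, 8.72 and 8.84. After H2O2 the values were 10.56, 10.57 and 10.68 (4 h), 11.24, 10.72 and 11.31 (8 h) and 10.34, 10.33 and 10.35 (24 h). After NCS they were 8.71, 8.58 and 8.79, then 9.59, 9.62 and 9.62, then 9.74, 9.82 and 9.71. The NCS libraries at 4 h overlapped the untreated ones, and no NCS library reached the lowest H2O2 library at any time. The difference was 1.91 (SE 0.10, adjusted p = 5.31e-11) at 4 h and 1.48 (SE 0.10, adjusted p = 5.41e-09) at 8 h. After NCS, CHAC1 rose from 4 to 8 h by 0.92 (SE 0.10, adjusted p = 5.34e-06). DDIT3, which encodes the stress factor CHOP, also rose over that step after NCS, by 0.64 (SE 0.07, adjusted p = 3.56e-06), while its step after H2O2 was -0.25.

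ATF3, a stress-induced transcription factor of the ATF family, was the highest of the 132 genes above untreated cells at 4 h after H2O2 and had passed its peak by 24 h. It was at 8.24, 8.22 and 8.19 in untreated cells. After H2O2 it was at 11.68, 11.66 and 11.65 (4 h), 10.56, 10.39 and 10.64 (8 h) and 9.30, 9.25 and 9.41 (24 h). After NCS its values were 9.78, 9.80 and 9.80 (4 h), 9.90, 9.81 and 9.86 (8 h) and 8.92, 8.94 and 9.06 (24 h). The 24 h libraries were the lowest of the treated ones in both, though all above untreated cells. ATF3 was higher after H2O2 by 1.87 (SE 0.05, adjusted p = 1.10e-14) at 4 h and fell from 4 to 8 h after H2O2 by 1.13 (SE 0.05, adjusted p = 1.74e-11), and the step differed between the treatments by -1.19 (SE 0.07, adjusted p = 3.19e-09). Of 25 AP-1 and other immediate-early genes, ATF3 alone was among the 132.

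TRIB3, a pseudokinase that restrains ATF4, lay 1.06, 1.92 and 2.08 above untreated cells at 4, 8 and 24 h after H2O2 and 0.02, 0.51 and 1.10 after NCS. DDIT4, an inhibitor of mTORC1, was higher after H2O2 than after NCS by 1.45 at 4 h and 1.57 at 8 h, and VLDLR, a lipoprotein receptor, by 1.10 and 1.59. NUPR1, a small stress-induced nuclear protein, was called only at 8 h (0.88), and its 4 h difference of 0.48 (SE 0.06, adjusted p = 1.60e-06) did not reach 0.58. The median H2O2 minus NCS difference was 1.08 at 4 h and 1.36 at 8 h over the 10 members of this list and -0.29 and 0.08 over the 27 p53 targets.

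**Figure D5:**
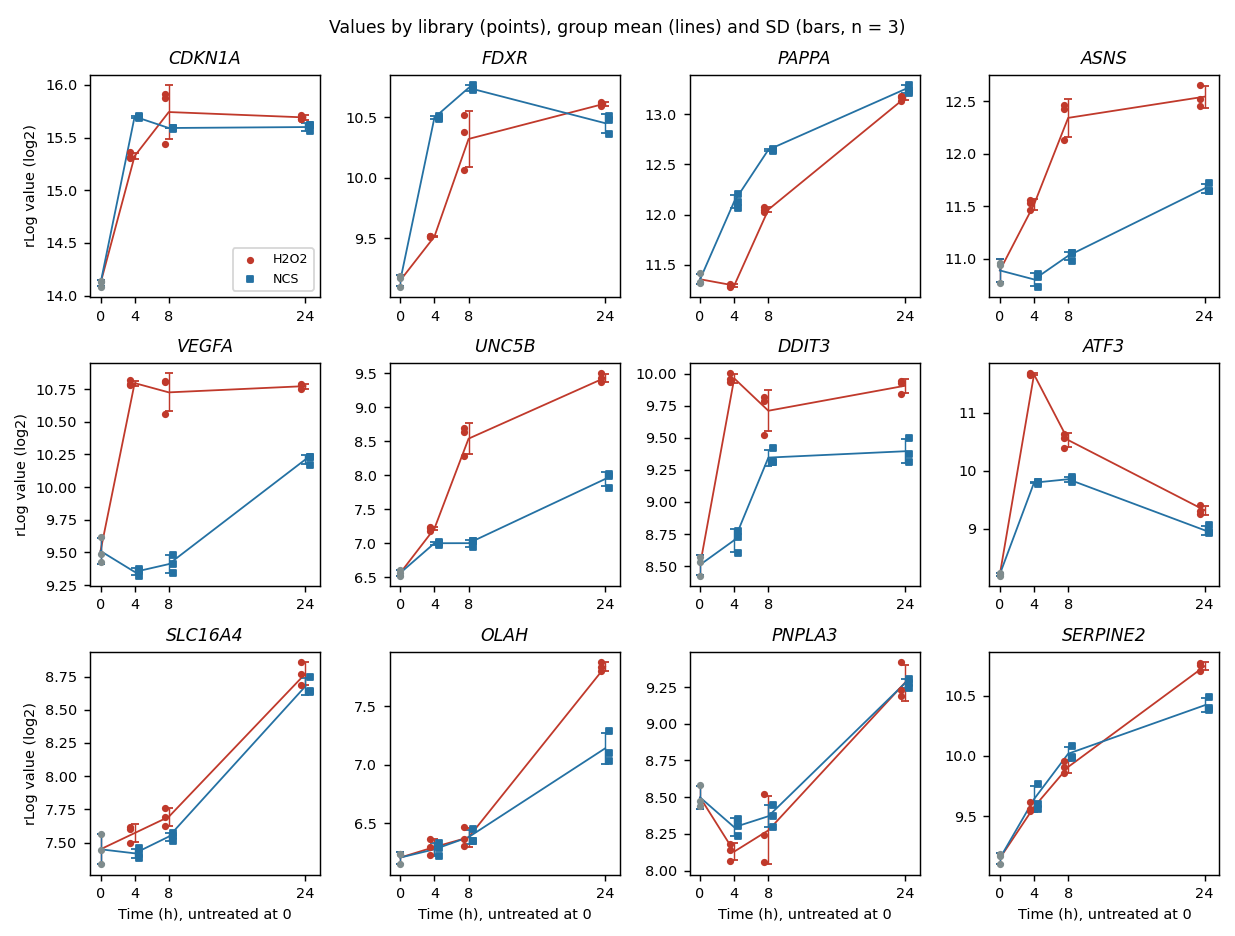
rLog value (log2) against time for 12 of the genes, 3 libraries a group as points, with group means joined by lines and SD bars (n = 3), H2O2 in red and NCS in blue. CDKN1A is raised at 4 h in both treatments, and FDXR is raised further after NCS than after H2O2 at that time. ASNS and VEGFA stay near or under the untreated range after NCS until 24 h, and SLC16A4, OLAH and PNPLA3 are raised at 24 h in both treatments.

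Outside both lists were 96 genes, of which 13 started at 4 h, 25 at 8 h and 58 at 24 h after H2O2, and 13, 16 and 67 after NCS. VEGFA, the main angiogenic growth factor and one of the 4 senescence-secretion genes among the members, was at 9.62, 9.49 and 9.43 in untreated cells. After H2O2 it was at 10.82, 10.79 and 10.78 (4 h), 10.81, 10.56 and 10.81 (8 h) and 10.75, 10.79 and 10.78 (24 h), about the same level at all 3 times. After NCS the libraries had 9.38, 9.35 and 9.32 (4 h), 9.48, 9.41 and 9.34 (8 h) and 10.17, 10.23 and 10.23 (24 h). The NCS means at 4 and 8 h were below the untreated mean, and only the 24 h libraries lay clear above it. VEGFA was higher after H2O2 by 1.45 (SE 0.06, adjusted p = 1.07e-12) at 4 h and 1.32 (SE 0.06, adjusted p = 4.76e-11) at 8 h. ADM2, a peptide hormone of the calcitonin family, was higher by 1.44 and 1.64, and ULBP1, a ligand that marks stressed cells for natural killer cells, by 1.22 and 1.16.

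UNC5B, the netrin receptor, had a higher mean at each later time after H2O2. It was at 6.53, 6.56 and 6.61 in untreated cells, and after H2O2 at 7.18, 7.24 and 7.23 (4 h), 8.64, 8.28 and 8.69 (8 h) and 9.37, 9.43 and 9.49 (24 h). After NCS it was between 6.98 and 7.02 (4 h), then at 7.03, 6.94 and 7.03 (8 h) and 7.82, 7.99 and 8.02 (24 h). The NCS libraries at 4 and 8 h overlapped each other, and the H2O2 groups did not overlap. From 4 to 8 h UNC5B rose by 1.32 (SE 0.08, adjusted p = 3.34e-10) after H2O2, the largest such step among the 132 genes, against 0.00 after NCS, and the steps differed by 1.32 (SE 0.11, adjusted p = 7.69e-08). SLC6A9, a glycine transporter, rose by 1.19 over the same step after H2O2, FAM129A, also called NIBAN1, by 1.02, and CCND2, a D-type cyclin, by 0.98. At 8 h SLC6A9 was higher after H2O2 by 1.78 (SE 0.08, adjusted p = 6.13e-11), the largest difference at that time.

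SLC30A1, which exports zinc from the cell, was high early and low late. It lay 2.18, 1.52 and 0.60 above untreated cells at 4, 8 and 24 h after H2O2 and 1.26, 0.67 and 0.62 after NCS. From 4 to 8 h it fell in both, by 0.66 (SE 0.05, adjusted p = 1.39e-08) after H2O2 and by 0.59 (SE 0.05, adjusted p = 6.24e-07) after NCS. The latter was the only fall called after NCS, and the call was lost without NCS 4 h replicate 1 or 2 or NCS 8 h replicate 3, with differences of -0.58, -0.57 and -0.57. ZNF425 and ZNF385A, both zinc finger genes, fell from 4 to 8 h after H2O2 by 0.77 and 0.60 and were over the limit again at 24 h (0.68 and 0.82). The step of LURAP1L differed between the treatments by -0.78 (SE 0.11, adjusted p = 2.36e-05), larger after NCS.

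PAPPA was the member whose smaller difference at 24 h was largest, and its rise started earlier after NCS. It was at 11.41, 11.33 and 11.32 in untreated cells. After NCS it was at 12.06, 12.13 and 12.20 (4 h), 12.65, 12.64 and 12.65 (8 h) and 13.23, 13.21 and 13.29 (24 h). After H2O2 it was at 11.28, 11.29 and 11.31 (4 h), 12.08, 12.03 and 12.04 (8 h) and 13.13, 13.17 and 13.18 (24 h). The H2O2 libraries at 4 h lay below all untreated ones, and at 24 h the treatments lay close to each other. PAPPA was lower after H2O2 by 0.84 (SE 0.03, adjusted p = 5.51e-13) at 4 h and by 0.60 (SE 0.03, adjusted p = 2.29e-10) at 8 h. With library medians aligned, the 8 h difference was -0.57 and no longer reached 0.58. PAPPA2, its relative, went the other way at 8 h, where it was higher after H2O2 by 0.83 (SE 0.08, adjusted p = 2.00e-07), and was at a mean of 7.83 ± 0.07 after H2O2 and 7.02 ± 0.11 after NCS at 24 h (SD, n = 3).

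Few genes were called in favour of NCS beside these. ASTN2, a neuronal membrane protein whose gene lies near PAPPA on chromosome 9, was at 7.29, 7.28 and 7.24 (8 h) after NCS and 6.58, 6.61 and 6.73 after H2O2, a difference of -0.63 (SE 0.05, adjusted p = 1.43e-08). It rose from 4 to 8 h after NCS by 0.60, and its NCS mean at 24 h was below that at 8 h. DACH2, a transcriptional cofactor, was at 8.18, 8.25 and 8.10 (4 h) after NCS, around its untreated range, and at 9.11, 9.07 and 9.06 (8 h), a step of 0.90 (SE 0.04, adjusted p = 2.33e-11). Between the treatments DACH2 was not called, with H2O2 minus NCS differences of 0.003 at 4 h, -0.49 at 8 h and -0.49 for the step. THSD1, a thrombospondin-domain membrane protein, and PSTPIP2, an adaptor that binds the cytoskeleton, were lower after H2O2 at 4 h by 0.78 and 0.69. PFKFB4, an enzyme that sets the rate of glycolysis, was lower after H2O2 at 4 h by 0.59 (SE 0.05, adjusted p = 9.84e-09), although it passed the limit over untreated cells only at 24 h in both. That call was lost under quantile normalization (-0.53) and without H2O2 4 h replicate 2, NCS 4 h replicate 2 or NCS 4 h replicate 3 (-0.56 each).

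More members changed from 4 to 8 h after H2O2 than after NCS. After H2O2, 22 of the 132 genes (16.7%) rose, against 0.985% of all genes, and ATF3, ZNF425, SLC30A1 and ZNF385A (3.03%) fell, against 1.24%. After NCS, CHAC1, DACH2, DDIT3 and ASTN2 (3.03%) rose, against 0.0254% of all genes, and SLC30A1 (0.758%) fell, against 0.122%. The median step was 0.25 after H2O2 and 0.16 after NCS, beside -0.01 and 0.00028 over all genes. The steps, taken with their sign, differed between treatments for 22 genes. For 16 (12.1%) the step after H2O2 was the higher, against 1.22% of all genes, and for 6 (4.55%) the step after NCS, against 1.21%. Among the 6, ATF3, ZNF425 and ZNF385A fell after H2O2 (-1.13, -0.77 and -0.60) and moved little after NCS (0.06, 0.09 and 0.05). DDIT3, LURAP1L and KIAA1217 had steps of -0.25, -0.22 and -0.29 after H2O2 and 0.64, 0.56 and 0.30 after NCS. By the adjusted p alone, 84 rose and 16 fell after H2O2 (18% and 27.7% of all genes), 70 rose and 8 fell after NCS (6.16% and 7.5%), and 49 and 32 had steps that differed (14.7% and 18%). Without replicate 2 of H2O2 at 8 h, 29 rose and 4 fell after H2O2, and 21 and 7 steps differed.

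The genes that started at 24 h in both treatments were mostly outside the 12 gene lists, with 40 of 47 in none. SLC16A4, of the monocarboxylate transporter family, had the largest smaller difference at 24 h among them. It was at 7.57, 7.34 and 7.44 in untreated cells, 7.69, 7.76 and 7.63 (8 h) and 8.69, 8.77 and 8.86 (24 h) after H2O2. After NCS it was at 7.51, 7.55 and 7.57 (8 h) and 8.75, 8.64 and 8.64 (24 h). The 8 h libraries after NCS overlapped the untreated range, and the 24 h libraries were higher in both treatments. OLAH, a thioesterase that releases fatty acids from fatty acid synthase, was at 6.15, 6.24 and 6.23 in untreated cells, 6.36, 6.46 and 6.31 (8 h) and 7.83, 7.80 and 7.88 (24 h) after H2O2, with 7.10, 7.03 and 7.28 (24 h) after NCS. At 8 h the OLAH mean lay 0.17 above untreated cells after H2O2 and 0.17 after NCS.

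PNPLA3, a lipid droplet protein, lay below untreated cells first and above them at 24 h. Untreated libraries had 8.58, 8.47 and 8.44. After H2O2 they had 8.18, 8.07 and 8.14 (4 h), 8.24, 8.52 and 8.06 (8 h) and 9.42, 9.23 and 9.19 (24 h). After NCS the values were 8.23, 8.35 and 8.30 (4 h), 8.45, 8.29 and 8.37 (8 h) and 9.24, 9.28 and 9.30 (24 h). All 6 libraries at 4 h were below the untreated range, the 8 h libraries after H2O2 spread widely, and all 6 at 24 h were above. Set against its own 24 h difference, the 8 h difference after H2O2 was smallest for PNPLA3 (-28.7%), ODZ4 (-22.3%), C1RL (-21.8%), PFKFB4 (-19.6%) and CLIP3 (-9.85%), where a negative share lies below untreated cells. The smallest after NCS were those of PAPPA2 (-24.1%), SLC6A15 (-19%), PNPLA3 (-16.5%), VEGFA (-14.3%) and ALDH1L2 (-13.4%).

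Other genes of this late class were picked for mention after their values were seen. CDKN2B, which encodes the kinase inhibitor p15, was at 8.94, 8.83 and 8.80 in untreated cells and at 9.65, 9.69 and 9.67 after H2O2 and 9.54, 9.53 and 9.60 after NCS at 24 h. It lay 0.38 above untreated cells at 4 h after H2O2 and 0.02 at 8 h. PLAU, the urokinase plasminogen activator, lay 1.16 and 0.59 above at 24 h, and ABCA1, which exports cholesterol, 1.03 and 0.96. EPAS1, which encodes the hypoxia factor HIF-2α, was at 12.29, 12.34 and 12.31 after H2O2 and 11.68, 11.73 and 11.80 after NCS at 24 h. MXD4, an antagonist of MYC, lay 0.83 and 0.80 above untreated cells, and ABCC3, a drug and bile salt exporter and the only one of 32 NRF2 targets among the members, 1.60 and 0.78.

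SERPINE2, a secreted protease inhibitor, was higher at each later time in both treatments. It was at 9.10, 9.17 and 9.19 in untreated cells. After H2O2 it was at 9.56, 9.54 and 9.62 (4 h), 9.91, 9.86 and 9.96 (8 h) and 10.75, 10.71 and 10.77 (24 h). After NCS it was at 9.56, 9.60 and 9.76, then 10.08, 9.99 and 9.98, then 10.38, 10.39 and 10.49. No 2 times overlapped within a treatment, and the treatments overlapped at 4 h. CSGALNACT1, an enzyme of chondroitin sulfate synthesis, lay 0.83 above untreated cells at 8 h after H2O2 and 0.72 after NCS, and FUCA1, a lysosomal fucosidase, 0.51 and 0.61.

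Other lists held between 0 and 4 of the 132 genes each, where 0.691% of all genes had met the limit before symbols were left out. They held 4 of 46 secreted factors of senescent cells (8.7%; ANGPTL4, PLAU, SERPINE2 and VEGFA), 2 of 48 lysosome and autophagy genes (4.17%; FUCA1 and GABARAPL1), 2 of 56 interferon and antigen presentation genes (3.57%; TAP1 and XAF1), 2 of 22 complement and coagulation genes (9.09%; C1RL and PLAU) and 2 of 26 quiescence and FOXO genes (7.69%; CCND2 and CDKN2B). At 24 h, ANGPTL4, an inhibitor of lipoprotein lipase, lay 0.98 above untreated cells after H2O2 and 0.90 after NCS. GABARAPL1, an autophagosome protein, lay 0.72 and 0.62 above, and TAP1, which carries peptides to be presented by MHC class I, 1.01 and 0.62. None of 62 non-collagen matrix and adhesion genes and none of 20 contractile genes was included. In all, 48 members stood in a list and 84 in none. Of the 32 genes in the NRF2 target list, 4 were higher after H2O2 than after NCS at 4 h (against 2.14% of all genes) and 11 at 8 h (against 0.711%), and none was lower (against 0.487% and 0.208%), but ABCC3 was not among them.

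RefSeq start sites (GRCh38.p14) gave a promoter sequence for 100 of the 132 genes, and 35116 promoters in all were searched on both strands. The p53 half-site was found in 8% of the members and 6.63% of all promoters, among them FDXR, PTCHD4 and RPS27L of the 19 p53 targets with a sequence. AP-1 sites (TGANTCA) were in 6% and 7.71%, cyclic AMP response elements (TGACGTCA) in 2% and 1.85%, and the antioxidant response element core (TGACNNNGC) in 16% and 13.3%. CCAAT boxes (CCAAT) were in 43% and 34.6%, TATA boxes (TATAAA) in 7% and 11.5%, and E-boxes (CACGTG) in 8% and 7.26%. The antioxidant response element core overlapped an E-box in 1 member promoter, and no other motifs overlapped. These shares describe letters in a short window and say nothing of binding.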

How the data were processed

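RNA-seq libraries of 7 groups, 3 biological replicates each, were described by their submitters in the labels. According to the study's methods, RNA from plated hTERT-HPNE cells was made into stranded mRNA libraries and read as paired ends. Reads were aligned with HISAT2 and counted with htseq-count in Galaxy. The submitters' processing notes name HISAT2, HTSeq, DESeq2 and hg19, while versions and the gene annotation are not given in the sources used here. The deposited log2 values are the authors' rLog output of DESeq2, made over all 21 libraries, which shrinks differences most for genes with few reads. No counts were used here, so the depth of each library and the precision it would give are unknown.

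The values were used without further normalization. Genes at 0 in every library (3674) were left out. Dates stood in place of 28 gene symbols, and 2 symbols occurred repeatedly. Groups followed the labels. All 7 groups were fitted together in limma (version 3.58.1, R 4.3.3), with the prior variance following mean expression and p-values adjusted over 19694 genes by the method of Benjamini and Hochberg. The comparisons were H2O2 minus NCS at 4 h and at 8 h, 8 h minus 4 h in each treatment, and the difference of these steps. A call needed an adjusted p under 0.05 and a difference over 0.58. An exact permutation test of a single gene (two-sided) could reach no p below 0.1 in groups of this size and was not run. Values against untreated cells carry no test, because those libraries chose the members. The members and gene lists were chosen with earlier results of these data known. On simulated data of 19694 genes, the fit found 100 of 100 genes changed by 0.8 and 100 of 100 changed by 1.2 in each comparison, with 0 false calls.

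Every member is named with its start. Values are given for the 15 members with the largest smaller difference at 24 h, for members in a gene list, for the 5 largest called differences in each direction of each comparison, for the 3 genes on each side of the limit, for the 5 largest differences at 4 h and the 5 smallest at 8 h relative to 24 h in each treatment, and for others said to be chosen after their values were seen or shown to place these. Promoters are RefSeq sequences (GRCh38.p14, 250 bases before to 50 after the start), matched by symbol for 122 members and by synonym for 9 (such as C5orf41, now CREBRF), with 1 unmatched. Python 3.11.15, pandas 2.3.3 and matplotlib 3.10.9 were used for the promoters and figures. The replicate numbers 1 to 3 were examined as a possible pairing. Deviations from group means correlated by 0.0274 on average between same-numbered libraries and by -0.0137 between others. Of same-numbered pairs, 12 of 63 exceeded 0.1, against 7 of 126 others, and the 3 between H2O2 and NCS at 8 h averaged 0.14. Whether the numbers pair the samples was therefore not settled, and the main fit did not use them. Alternatives were other scalings (aligned library medians, quantile normalization), other sets of genes (all listed, or a mean of 5 or more), a fit of the compared groups only, a constant prior variance, other limits, omission of single libraries, and the replicate block. The microscopy, blot and flow cytometry measurements were not analysed here.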

Additional observations from a re-analysis of the deposited data

Results flagged for a closer look

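Several genes and counts differed between the treatments by a test of the difference itself, in limma with Benjamini-Hochberg adjustment over all genes, and are listed here for a closer look. At 4 h, 17 members were higher and 8 lower after H2O2 than after NCS. The largest differences (log2) in favour of H2O2 were those of CHAC1 (1.91), ATF3 (1.87), DDIT4 (1.45), VEGFA (1.45) and ADM2 (1.44). In favour of NCS they were those of FDXR (-0.98), PAPPA (-0.84), ZMAT3 (-0.82), THSD1 (-0.78) and MDM2 (-0.77).

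At 8 h, 20 members were higher and 2 lower after H2O2. SLC6A9 (1.78), ADM2 (1.64), VLDLR (1.59), DDIT4 (1.57) and UNC5B (1.54) differed most in favour of H2O2, and ASTN2 (-0.63) and PAPPA (-0.60) were the 2 in favour of NCS.

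With its sign kept, the step from 4 to 8 h was higher after H2O2 for 16 members and higher after NCS for 6. Among the 6, ATF3, ZNF425 and ZNF385A fell after H2O2 and moved little after NCS. The difference between the steps was 1.32 for UNC5B, 1.07 for SLC6A9, 1.02 for MDM2, 0.96 for FAM129A and 0.96 for PAPPA2. It was -1.19 for ATF3, -0.89 for DDIT3, -0.86 for ZNF425, -0.78 for LURAP1L and -0.65 for ZNF385A. With 3 libraries in a group, single libraries were not examined as outliers gene by gene.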

How the results depend on the processing

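At a difference over 1, 10 members were higher and 0 lower after H2O2 at 4 h, against 0.559% and 0.0152% of all genes. At 8 h, 12 and 0 were, against 0.157% and 0.00508%. From 4 to 8 h, 3 rose and 1 fell after H2O2 (0.0457% and 0.162% of all genes) and 0 and 0 after NCS (0% and 0.0152%). At that limit 3 and 1 steps differed (0.0559% and 0.168%), and 13 genes met the member rule. By the adjusted p alone the counts were 40 and 50, 46 and 44, 84 and 16, 70 and 8, and 49 and 32. With medians aligned, 1 member was lower after H2O2 at 8 h. With each library left out in turn, the fall after NCS from 4 to 8 h was called for 0 to 1 member and the member rule gave 129 to 142 genes. With a limit of 0.3 in place of 0.58, 59 members started at 4 h and 34 at 24 h after H2O2, and 59 and 42 after NCS, and 18 started at 24 h in both and 74 before 24 h in both, in place of 47 and 38, as a lower limit must move starts earlier. With the start at 50% of the 24 h difference, 31 started at 24 h in both. Quantile normalization gave 161 members, of which 129 were among the 132.

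Whether the replicate numbers pair the samples was not settled, and 12 of 21 libraries correlated best with their own number. With the replicate block, the 5 comparisons called the same numbers of members, 17 and 8, 20 and 2, 22 and 4, 4 and 1, and 16 and 6, and all 100 gene calls held.

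Calls that ended when one library was left out were those of PFKFB4 at 4 h, CBS at 8 h (0.57 without H2O2 8 h replicate 1), ACER2 and MDM2 after H2O2 from 4 to 8 h (0.50 and 0.53 at the lowest), SLC30A1 after NCS, and ACER2 (0.57), ASNS (0.54), PSAT1 (0.56) and KIAA1217 (-0.52) for the difference in steps. KIAA1217 (-0.58 under each scaling), PFKFB4 (-0.53 under quantile normalization) and PAPPA at 8 h (-0.57 with medians aligned) also fell under the limit. No call of a gene changed direction under any alternative. The library that stood apart, H2O2 8 h replicate 2, ended none of the 70 calls it touched. Depth is unknown, and rLog shrinks differences, so small changes of weakly read genes could pass unseen.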
